A study of Mus musculus with 33 samples.

Results

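The genes described here are 41 genes of the Wnt pathway, chosen by name from the 24391 rows of a mouse RNA count table. All 41 were found: 15 ligands, 11 receptors, 6 genes of signal transduction and its nuclear factors, 4 induced target or feedback genes, and 5 secreted modulators. The study followed mouse embryonic stem (ES) cells during differentiation and asked how repeats of the Xist RNA act in X-inactivation. Polyadenylated RNA was sequenced in 12 libraries, 6 of cells labelled RepB and 6 of cells labelled wildtype (WT), with 1 library per genotype on each of days 0, 5, 6, 7, 8 and 10. The strain label of both is CAST/Ei x 129/Sv/Jae, which names a hybrid. Whether both parental alleles were present at each member was not tested. RepB is named after Repeat B of Xist. The labels give neither the edit, nor the allele that carries it, nor the number of clones.

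At day 0 the cells had grown with LIF, a factor that holds ES cells undifferentiated, on irradiated feeder fibroblasts. Feeders were then removed, the cells formed embryoid bodies in suspension, and these were plated on gelatin at day 4. The other 21 samples of the series, of chromatin, were not analysed here. Nothing in the labels says that the days came from separate cultures, so a p-value below speaks only of a single course of each line. In RepB against WT it measures the steadiness of a gap across days. For any difference between days, the libraries of both lines served as the repeats of a day. Against day 0, the later days served as repeats, and for slopes the error is the scatter about a line. Library totals were 3594551 to 15231930 counts in RepB and 7763633 to 17773138 counts in WT, and on every day the RepB library was the shallower. A floor of 3 counts equals 0.194 to 0.889 CPM in RepB and 0.164 to 0.387 CPM in WT, where CPM is the usual depth-scaled count, with library sizes adjusted by TMM.

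Wnt proteins are lipid-modified secreted signals that bind Frizzled receptors, most of them together with the co-receptor Lrp5 or Lrp6. In the canonical branch this stops the Axin and Apc complex from destroying beta-catenin, which enters the nucleus and switches on genes through TCF and LEF factors. Several of those genes feed back on the pathway. In the mouse embryo Wnt3 is needed for the primitive streak, the site where mesoderm and endoderm form, and in ES cells Wnt signalling also bears on self-renewal.

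The start-site windows of 4 genes are shown, because their transcripts made up the early wave described next: Sp5 and Axin2, which are standard direct targets, and the ligands Wnt3 and Wnt5b. Each window runs from 250 bases before to 50 bases after a RefSeq transcript start on build GRCm38.p6, written 5′ to 3′ along the gene. Capitals mark CTTTGAT, the core letters of the TCF/LEF motif, searched on both strands with no overlap with another motif searched. The windows lie at chr2:70474673-70474972 on the plus strand (Sp5), chr11:108920099-108920398 on the plus strand (Axin2), chr11:103773925-103774224 on the plus strand (Wnt3) and chr6:119449337-119449636 on the minus strand (Wnt5b).
Sp5: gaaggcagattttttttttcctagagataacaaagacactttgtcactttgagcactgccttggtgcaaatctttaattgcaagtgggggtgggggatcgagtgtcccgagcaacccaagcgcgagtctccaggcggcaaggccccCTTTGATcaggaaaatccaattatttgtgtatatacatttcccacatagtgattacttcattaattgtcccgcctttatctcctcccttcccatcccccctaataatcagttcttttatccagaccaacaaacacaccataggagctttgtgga
Axin2: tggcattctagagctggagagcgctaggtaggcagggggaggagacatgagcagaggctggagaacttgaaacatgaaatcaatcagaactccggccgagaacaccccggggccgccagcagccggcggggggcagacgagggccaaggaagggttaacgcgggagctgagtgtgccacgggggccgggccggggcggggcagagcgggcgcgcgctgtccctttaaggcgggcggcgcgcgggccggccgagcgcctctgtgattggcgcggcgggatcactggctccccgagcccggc
Wnt3: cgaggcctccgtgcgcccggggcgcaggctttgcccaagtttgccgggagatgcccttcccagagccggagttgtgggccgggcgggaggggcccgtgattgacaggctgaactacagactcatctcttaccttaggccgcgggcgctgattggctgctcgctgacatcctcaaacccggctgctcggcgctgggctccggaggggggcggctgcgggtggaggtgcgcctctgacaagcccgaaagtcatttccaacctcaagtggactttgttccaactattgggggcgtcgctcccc
Wnt5b: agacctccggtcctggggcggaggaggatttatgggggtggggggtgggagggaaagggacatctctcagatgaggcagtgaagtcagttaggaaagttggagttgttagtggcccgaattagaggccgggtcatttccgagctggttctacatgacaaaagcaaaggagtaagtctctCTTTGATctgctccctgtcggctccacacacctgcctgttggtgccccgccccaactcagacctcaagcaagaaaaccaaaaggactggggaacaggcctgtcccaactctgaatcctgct
The match lay 104 bases before the start in Sp5 and 71 bases before it in Wnt5b, which has 3 windows in the table, with the motif in 1, the one shown. Of the 41 members, 27 were in the RefSeq window table, and 3 of these (Sp5, Wnt5b and Wnt11) held the motif, or 11.1%. Among all 27025 genes listed it was held by 4.29%, and counted by window it was in 3 of 36 member windows and in 3.73% of all 32851. A match is a description of letters, and no match says only that these letters are not in this window.

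The label of the cells was checked against 10 genes of naive pluripotency, whose summed level was 5555 CPM at day 0 and 369 CPM at day 10 in RepB, against 4748 and 273 CPM in WT. All 41 members passed the filter on low counts in the 12-library tests, and 38 did in the slope tests, which left out Wnt1, Wnt3a and Wnt10a.

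Expression of most members moved with the day of differentiation, as did that of most genes. With genotype as a block, 36 of 41 members differed between the 6 days, not far from the background of 78.6% of the 15179 genes tested (edgeR quasi-likelihood test, Benjamini-Hochberg adjusted p under 0.05 over all genes, here and for every call below). Neither line was tested alone. The members that did not pass were Wnt10a, Fzd3, Lrp5, Lrp6 and Axin1. In the stricter comparison of days 5 to 10 with day 0, where spread between days counts as error, 12 members rose and 2 fell, against a background of 12.4% of genes higher and 13.1% lower. These 14 calls became 29 with day as a factor in the fit, and 9 without day 6. The median log2 change was 1.52 over the members and 0.08 over all genes tested. In 26 of 41 members the highest library fell on the same day in RepB and WT. These include Fzd3 and Lrp5, which did not pass for any day difference, and the share over all genes was not counted. In bulk RNA, more cells that express a gene and more RNA per cell cannot be told apart, so levels here are those of the whole culture.

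**Figure D1:**
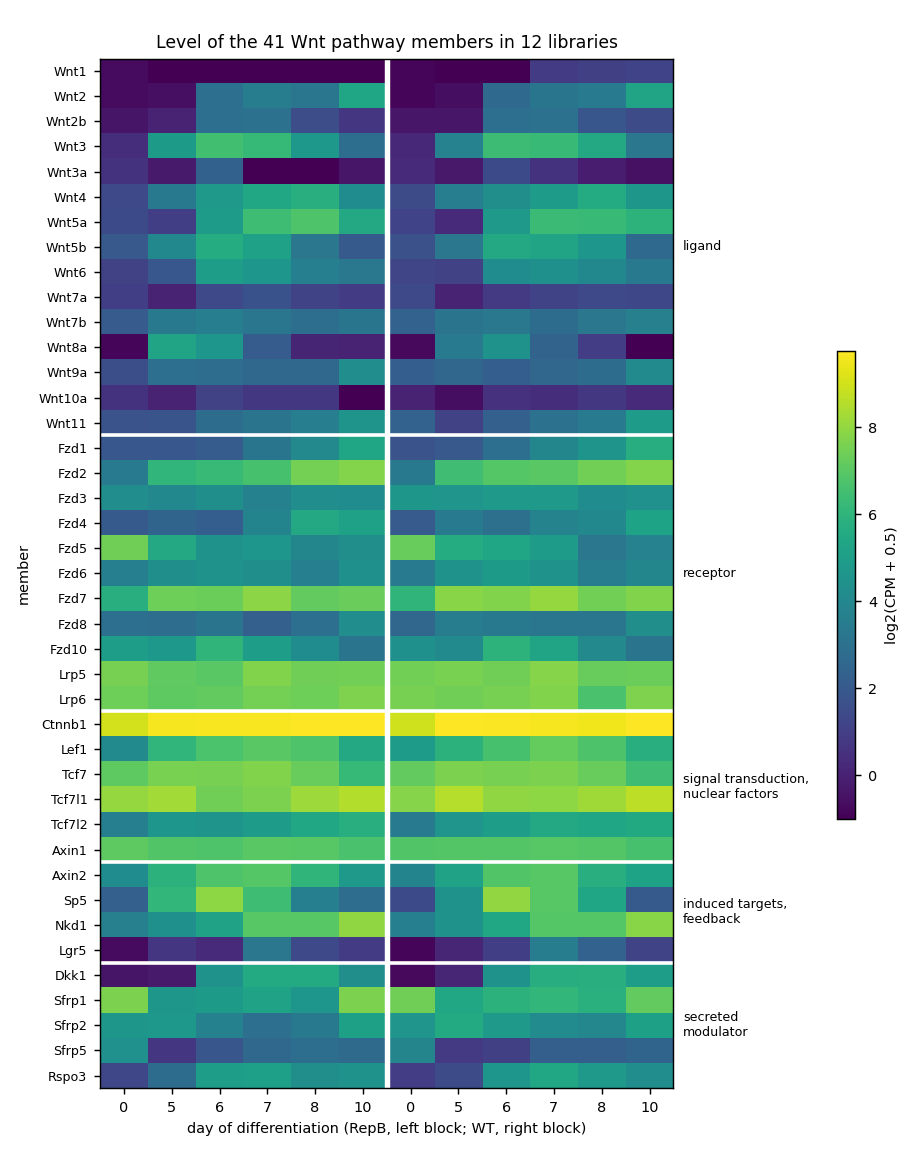
Colour shows log2(CPM + 0.5) for each of the 41 members (rows, by role) in each of the 12 libraries (columns, by day, with RepB in the left block and WT in the right). The highest library fell on the same day in both blocks in 26 of 41 members, among them Fzd3 and Lrp5, which did not pass for any day difference.

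In every sentence that gives 6 values per line below, they stand for days 0, 5, 6, 7, 8 and 10. A log2 rise or fall given without a span of days is that of days 5 to 10 against day 0. Among the ligands, Wnt3, the streak inducer, measured 0.842, 28.8, 90.2, 73.7, 25.8 and 6.96 CPM in RepB against 0.67, 13.04, 83.4, 74.7, 45.02 and 9.15 CPM in WT. It was near 1 CPM at day 0 and highest at day 6 in both lines. Its rise in days 5 to 10 against day 0 was 5.89 on the log2 scale (SE 1.40, adjusted p = 0.013). Wnt8a, another ligand of the gastrulating embryo, measured 0.0648, 37.8, 24.9, 3.92, 0.593 and 0.557 CPM in RepB against 0.112, 10.6, 21.7, 4.84, 1.42 and 0 CPM in WT. Its peak stood at day 5 in RepB and at day 6 in WT, and it fell after day 5 by 1.5 log2 units per day (SE 0.22, adjusted p = 0.000501). Wnt5b, a ligand usually classed as non-canonical, measured 3.5, 15.7, 50.03, 35.03, 9.19 and 3.62 CPM in RepB against 2.68, 9.21, 44.5, 37.9, 24.4 and 5.9 CPM in WT. It too peaked at day 6 in both lines, and its change against day 0 did not pass (log2 2.94, adjusted p = 0.0716).

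A later set of ligands followed. Wnt5a, the main non-canonical Wnt in many tissues, measured 2.2, 1.48, 29.2, 84.8, 111 and 43.99 CPM in RepB against 1.73, 0.713, 26.8, 79.7, 77.8 and 61.3 CPM in WT. It stayed low at day 5 in both lines and was high from day 7, and its change against day 0 was 4.71 on the log2 scale (SE 1.78), which did not pass (adjusted p = 0.0752). Wnt4, known for kidney and gonad development, measured 2.07, 9.77, 26.6, 42.9, 53.1 and 18.4 CPM in RepB against 2.29, 11.6, 19.6, 29.4, 47.9 and 25.4 CPM in WT. It rose by 3.69 (log2, SE 0.77, adjusted p = 0.00728), with its highest library at day 8 in both lines. Wnt2, active in early heart and lung, measured 0.13, 0.184, 7.13, 11.3, 8.89 and 40.1 CPM in RepB against 0.0558, 0.164, 5.82, 8.43, 10.2 and 38.4 CPM in WT. At day 0 it was at or under the floor in both lines, and it was highest at day 10 in both.

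Wnt11, a non-canonical ligand of heart development, measured 2.85, 2.95, 6.43, 8.3, 11.6 and 23.1 CPM in RepB against 4.74, 1.7, 4.47, 7.89, 10.7 and 29.2 CPM in WT. Its level rose after day 5 by 0.65 log2 units per day (SE 0.05, adjusted p = 2.64e-05), with the highest library at day 10 in both lines. Wnt9a and Wnt2 also rose over days 5 to 10, by 0.32 and 0.90 log2 units per day (adjusted p = 0.00614 and 0.00252). Both calls were lost without day 10, where the slope of Wnt9a turned to -0.0084. Wnt7b rose against day 0 by 1.12 (log2, adjusted p = 0.0229), a call lost without day 6. In all, 3 of 15 ligands rose against day 0 and none fell, a share not far from the 12.4% of all genes that rose. Wnt1, Wnt3a, Wnt7a and Wnt10a were scarce, with no library above the 4.61 CPM of Wnt3a at day 6 in RepB. Wnt2b peaked at 7.61 CPM in RepB and 7.89 CPM in WT, both at day 7, and Wnt6 at 31.7 CPM at day 6 in RepB and 20.6 CPM at day 7 in WT.

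**Figure D2:**
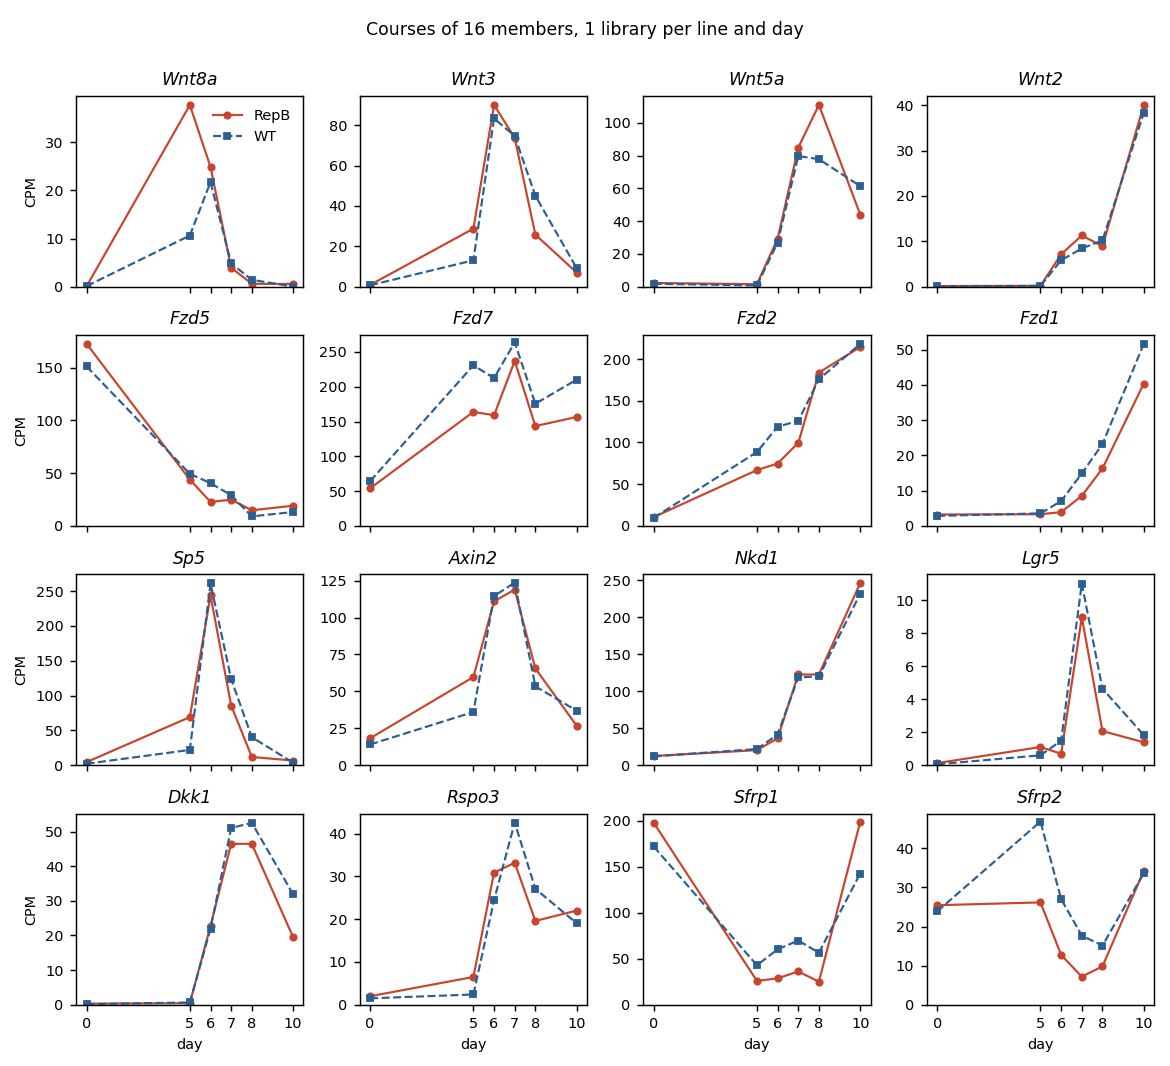
CPM (vertical axis, from 0) of 16 members by day (horizontal axis), 1 library per point, with RepB as red circles and WT as blue squares. Sp5, Wnt3 and Axin2 form a peak at days 6 and 7, Fzd5 is highest at day 0, and Wnt2, Fzd1, Fzd2 and Nkd1 are highest at day 10 in both lines.

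Levels per kilobase of summed exon length allow ligands to be set beside each other. The summed level of the 15 ligands was 7.46, 50.6, 108, 97.2, 70.00 and 58.05 CPM per kb in RepB against 8.29, 23.2, 89.1, 90.99, 77.5 and 68.00 CPM per kb in WT. It was lowest at day 0 and highest at day 6 in RepB and at day 7 in WT. Wnt8a held the largest share at day 5, with 49.2% in RepB and 30.1% in WT. Wnt3 led at day 6 and again at day 7, with 24.3% in RepB and 26.4% in WT on the later day. Wnt5a led at day 8, with 36.2% in RepB and 22.9% in WT, and Wnt2 at day 10, with 32.7% in RepB and 26.7% in WT. So the order of leading ligands from day 5 on was the same in both lines, while at day 0, at a far lower sum, Wnt5b led in RepB (17.7%) and Wnt11 in WT (18.0%).

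The Frizzled receptors were exchanged over the course. Fzd5 measured 173, 43.9, 22.8, 24.9, 14.8 and 19.2 CPM in RepB against 151, 49.4, 40.5, 29.1, 9.03 and 13.2 CPM in WT. It was by far highest at day 0, and days 5 to 10 stood 2.60 log2 units below day 0 (SE 0.47, adjusted p = 0.00394). It fell on by 0.33 log2 units per day after day 5 (adjusted p = 0.00733, a call lost without day 5). Fzd7, reported as an abundant Frizzled of human pluripotent cells, measured 53.97, 164, 159, 237, 144 and 156 CPM in RepB against 64.3, 231, 212, 264, 176 and 210.2 CPM in WT. It rose by 1.72 (log2, SE 0.23, adjusted p = 0.000826) and was highest at day 7 in both lines. Fzd2 measured 10.6, 66.9, 74.8, 99.5, 184 and 214 CPM in RepB against 9.71, 88.6, 118.9, 126, 176 and 218 CPM in WT. It rose by 3.75 (log2, SE 0.59, adjusted p = 0.00196) and kept rising after day 5, by 0.32 log2 units per day (SE 0.04, adjusted p = 0.00011).

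Fzd1 measured 3.24, 3.32, 3.91, 8.53, 16.3 and 40.4 CPM in RepB against 2.85, 3.56, 7.04, 14.9, 23.2 and 51.7 CPM in WT. It hardly left its day 0 level at day 5 and rose after that by 0.77 log2 units per day (SE 0.05, adjusted p = 8.84e-06), the smallest p of a slope among the members. Fzd4 rose after day 5 as well, by 0.57 log2 units per day (adjusted p = 0.00187), whereas Fzd8 (0.23, adjusted p = 0.0314) and Fzd10 (-0.47, adjusted p = 0.0332) passed but lost the call without day 6 or without day 10, and Fzd10 also without day 7 or 8. The slope of Fzd8 turned to -0.089 without day 10, and its call was lost after thinning too. The co-receptor Lrp5 measured 184, 140.3, 127, 211, 171 and 178 CPM in RepB against 175, 191, 173, 222, 153 and 163 CPM in WT. Neither Lrp5 nor Lrp6 passed the test of any day difference, with adjusted p = 0.105 and 0.101 over the 6 days.

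Fzd3, which did not pass for any day difference, lay between 12.9 and 20.3 CPM in RepB and 18.1 and 27.96 CPM in WT. Fzd6, which did (adjusted p = 0.000519), lay between 11.9 and 21.7 CPM in RepB and 10.4 and 28.5 CPM in WT. Fzd9, a Frizzled gene outside the members, is not in the sums and shares that follow. It measured 19.9 CPM at day 0 and 1.67 CPM at day 10 in RepB, against 18.3 and 1.22 CPM in WT. Per kilobase, the 9 Frizzled members summed to 57.7 CPM at day 0 and 128 CPM at day 10 in RepB, against 52.5 and 141 CPM in WT. Fzd5 led at day 0 with 43.3% of the sum in RepB and 41.6% in WT. Fzd7 led at days 5, 6 and 7, with 36.6% to 47.5% in RepB and 37.1% to 48.3% in WT. Fzd2 led at days 8 and 10, with 45.7% and 46.2% in RepB against 44.9% and 42.6% in WT. Over days 5 to 10, 16 of 38 members tested had a slope, 11 up and 5 down, against a background of 27% up and 25.9% down of 12948 genes.

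**Figure D3:**
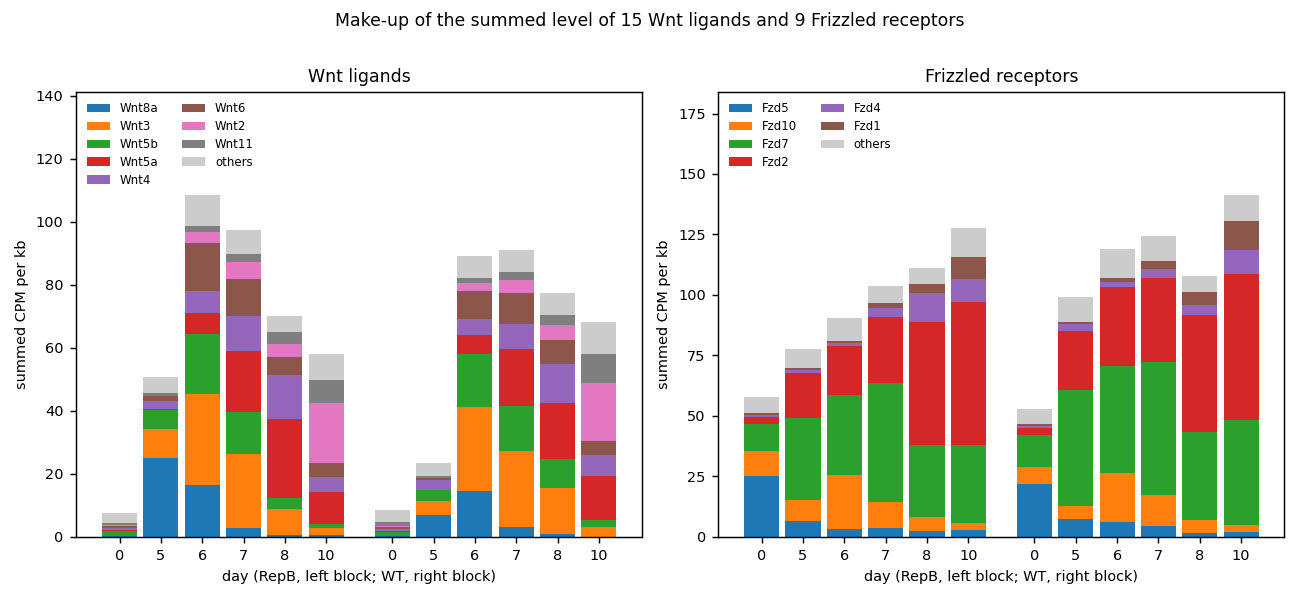
Bars show the summed CPM per kb of the 15 Wnt ligands (left panel) and 9 Frizzled receptors (right panel) in each library, split by gene, with RepB days in the left block and WT days in the right. The leading gene passes from Wnt8a through Wnt3 and Wnt5a to Wnt2, and from Fzd5 through Fzd7 to Fzd2, in both lines.

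Inside the cell, Ctnnb1, which encodes beta-catenin, measured 524, 768, 797, 802, 863 and 861 CPM in RepB against 502, 855, 825, 768, 742 and 862 CPM in WT. It rose by 0.67 on the log2 scale (SE 0.13, adjusted p = 0.00482), and every library of days 5 to 10 was above both of day 0. Lef1, a TCF/LEF factor that is itself induced by Wnt signalling, measured 17.1, 66.9, 104, 127, 112 and 44.5 CPM in RepB against 29.4, 59.3, 97.8, 148, 108 and 55.03 CPM in WT. It rose by 2.04 (log2, SE 0.49, adjusted p = 0.0133), with its peak at day 7 in both lines. Tcf7l1, the factor that acts mainly as a repressor in ES cells, measured 267, 310.5, 169.7, 197, 287 and 364 CPM in RepB against 222, 380.3, 250.2, 246, 295 and 407 CPM in WT. In both lines it was high at day 5, lower at days 6 and 7 and highest at day 10, and its change against day 0 did not pass (log2 0.25, adjusted p = 0.557).

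Tcf7l2 measured 11.9, 24.5, 23.5, 30.2, 41.5 and 54.3 CPM in RepB against 10.7, 23.8, 31.6, 44.6, 39.6 and 45.7 CPM in WT. It rose against day 0 by 1.66 (log2, SE 0.38, adjusted p = 0.0108) and by 0.22 log2 units per day after day 5 (SE 0.04, adjusted p = 0.00141). Tcf7, an activating factor, fell after day 5 by 0.25 log2 units per day (SE 0.05, adjusted p = 0.0024), a call lost without day 10. Axin1, a scaffold of the destruction complex, lay between 101.6 and 136 CPM in RepB and between 97.8 and 124 CPM in WT. Per kilobase, Tcf7l1 made up 57.4% of the 4 TCF/LEF genes in RepB and 51.0% in WT at day 0. Tcf7 led in RepB at day 6, with 47.3% there against 40.9% in WT, where Tcf7l1 still led. At day 7 Tcf7 led in both, with 46.6% in RepB against 39.4% in WT, and at day 10 Tcf7l1 led again, with 68.9% in RepB and 68.6% in WT.

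The induced genes peaked in order. Sp5, a transcription factor that is a direct Wnt target and whose window above holds the TCF/LEF core, measured 4.47, 69.1, 244, 85.7, 11.9 and 6.68 CPM in RepB against 2.18, 21.98, 261, 124, 40.2 and 3.66 CPM in WT. It rose to a sharp peak at day 6 and was low again at day 10 in both lines. Its change in days 5 to 10 against day 0 did not pass (log2 4.80, SE 1.90, adjusted p = 0.0875). Its slope after day 5 did (-1.05 per day, adjusted p = 0.0275, lost without day 6, 8 or 10). Axin2, the feedback partner of Axin1, measured 18.3, 59.7, 111, 118.9, 65.5 and 26.7 CPM in RepB against 14.1, 36.1, 114, 124, 53.4 and 36.9 CPM in WT. It rose by 2.22 (log2, SE 0.68, adjusted p = 0.0375), with the peak at day 7 in both lines, a call lost without day 6, 7 or 8.

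Lgr5, the R-spondin receptor that marks Wnt-responsive stem cells, measured 0.13, 1.11, 0.699, 8.99, 2.08 and 1.39 CPM in RepB against 0.0558, 0.603, 1.49, 11.03, 4.64 and 1.83 CPM in WT. It was at or under the floor at day 0, so that the fitted change depends on 2 counts in RepB and 1 in WT there, and it rose by 5.08 (log2, SE 1.61, adjusted p = 0.0421), a call lost without day 6 or 8 and after thinning all libraries to the smallest. Nkd1, a feedback inhibitor that binds Dishevelled, measured 12.4, 20.5, 36.3, 123, 123 and 246 CPM in RepB against 12.1, 21.9, 41.5, 118.9, 120.1 and 232 CPM in WT. After day 5 it rose by 0.69 log2 units per day (SE 0.09, adjusted p = 0.000251) and was highest at day 10 in both lines.

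Among the secreted modulators, Dkk1, which blocks Lrp5 and Lrp6, measured 0.259, 0.369, 22.8, 46.5, 46.5 and 19.5 CPM in RepB against 0.112, 0.603, 22.00, 51.1, 52.6 and 31.9 CPM in WT. It was under 1 CPM up to day 5 and above 19 CPM from day 6 in both lines. At day 0 it had 4 counts in RepB and 2 in WT, on which the fitted change depends. It rose by 7.31 (log2, SE 2.13, adjusted p = 0.0304), a call lost without day 6, 7 or 8. Rspo3, which amplifies Wnt signals through the Lgr receptors, measured 1.94, 6.45, 30.9, 33.2, 19.6 and 22.00 CPM in RepB against 1.45, 2.36, 24.4, 42.6, 27.1 and 19.02 CPM in WT. It rose by 3.75 (log2, SE 1.01, adjusted p = 0.0218), lost without the same days. Sfrp5, a secreted Frizzled-related antagonist, measured 21.1, 1.11, 3.21, 5.53, 6.82 and 6.12 CPM in RepB against 14.2, 1.26, 1.56, 4.3, 4.26 and 4.99 CPM in WT. It fell by 2.17 (log2, SE 0.54, adjusted p = 0.0165), with every later library below both of day 0, and the call was lost after thinning.

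Sfrp1, another antagonist of that family, measured 198, 25.6, 28.5, 35.95, 24.9 and 199 CPM in RepB against 172, 42.7, 60.05, 69.6, 56.4 and 142 CPM in WT. Both ends of the course were high and the middle low in both lines, and the rise after day 5 was 0.45 log2 units per day (SE 0.08, adjusted p = 0.00158), a call lost without day 10. The summed level of 12 fibroblast and feeder genes was also higher at day 0 than at day 5 and highest at day 10, at 1028, 64.2, 153, 958, 3242 and 14330 CPM in RepB against 887, 77.1, 118.9, 712, 1523 and 9568 CPM in WT. At day 10 the largest parts of that sum were Col1a1, Col1a2, Postn and Col3a1, with 5719, 3576, 2248 and 2202 CPM in RepB. Other listed genes did not follow the sum. Thy1 was at 121 CPM at day 0 and 6.40 CPM at day 10 in RepB, against 101 and 4.68 CPM in WT. S100a4 was highest at day 0 in both lines. None of the 12 was at 0 in all libraries of days 5 to 10 in either line, and their part in the Sfrp1 course was not tested.

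Against that shared course, few members passed in the comparison of RepB with WT. Over days 5 to 10, with day as a block (4 residual degrees of freedom), 0 of 41 members were higher in RepB and 2 were lower, against a background of 1.51% of 15179 genes higher and 0.771% lower. No member was higher by DESeq2 or limma-voom, and at an unadjusted p under 0.05 there were 10 members (24.4%), 1 with an estimate above 0 (Sfrp5) and 9 below, against 15.0% of all genes. The median log2 RepB/WT was -0.02 over the members and -0.0019 over all genes. By role, none of the 15 ligands, 6 signal transduction and nuclear genes or 4 target and feedback genes passed.

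Fzd7 was the receptor that passed. It is a single exon of 4809 bases on the plus strand of chromosome 1, 59538991 to 59543799 of mm9. Its RepB value in the course above was below its WT value on all 6 days, at 0.84 times WT on day 0 and 0.71, 0.75, 0.90, 0.82 and 0.74 times on days 5 to 10. The log2 difference over days 5 to 10 was -0.36 (SE 0.08, adjusted p = 0.0425). The call was lost without day 5, 6, 7 or 10, with adjusted p from 0.104 to 0.163, while the estimate stayed between -0.41 and -0.33 there. It was also lost after thinning the libraries to equal depth (adjusted p = 0.0637).

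None of the other 8 Frizzled members passed. Fzd1 stood at -0.53 (adjusted p = 0.0857), Fzd3 at -0.46 (adjusted p = 0.149), Fzd8 at -0.41 (adjusted p = 0.276) and Fzd2 at -0.27 (adjusted p = 0.255). Fzd5 at -0.10 and Fzd6 at -0.07 were closer to 0, and Fzd4 at 0.02 and Fzd10 at 0.13 lay on the other side of it. The nuclear factor Tcf7l1 stood at -0.28 (adjusted p = 0.146). Without day 8, Fzd2, Fzd3 and Tcf7l1 passed as well, at adjusted p = 0.0398, 0.0229 and 0.022, and with no filter on low counts Fzd1 did, at adjusted p = 0.0477.

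Sfrp2, a secreted Frizzled-related protein, measured 25.5, 26.2, 12.7, 7.14, 9.78 and 34.2 CPM in RepB against 23.9, 46.9, 27.01, 17.7, 15.1 and 33.7 CPM in WT. RepB was below WT on days 5, 6, 7 and 8 and at 1.07 and 1.02 times WT on days 0 and 10. The log2 difference over days 5 to 10 was -0.74 (SE 0.17, adjusted p = 0.044), lost without day 5, 6 or 7, with another scaling (adjusted p = 0.0565), after thinning (adjusted p = 0.0979) and by limma-voom (adjusted p = 0.0511). Its relative Sfrp1 was at 0.60, 0.47, 0.52 and 0.44 times WT on days 5 to 8 and at 1.40 times on day 10. Over days 5 to 10 that difference did not pass (log2 -0.65, SE 0.20, adjusted p = 0.139), and it did without day 10 (-0.98, adjusted p = 0.00937), with no filter on low counts (adjusted p = 0.0207) and by DESeq2 (adjusted p = 0.0217). Of the 12 fibroblast and feeder genes, 2 were higher in RepB over days 5 to 10 (Col3a1 and Postn) and 0 lower, with sums of 64.2 to 14330 CPM in RepB and 77.1 to 9568 CPM in WT, and their part in the Sfrp1 and Sfrp2 gaps was not tested.

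Wnt1, a ligand of the midbrain, had 0 counts in all 5 RepB libraries of days 5 to 10. In WT it had 0 counts at days 5 and 6 and 1.35, 1.55 and 1.73 CPM at days 7, 8 and 10, where the RepB floor was 0.691, 0.889 and 0.835 CPM. The difference did not pass (adjusted p = 0.0723), except with no filter on low counts (adjusted p = 0.037). Of 7 markers of neural ectoderm tested, 5 were lower in RepB over days 5 to 10 (Sox1, Pax6, Pax3, Lhx2 and Map2). Nes and Tubb3 did not pass. On days 6, 7, 8 and 10 Tubb3 was higher in RepB, at 45.1, 30.9, 55.1 and 28.1 CPM against 39.9, 27.9, 35.6 and 21.1 CPM in WT. With the difference at day 0 taken off, 0 of the 7 passed. Neurog2, the gene not tested, was at or under the floor in both lines on those days. The 8 neural ectoderm genes summed to 100.8 to 353 CPM in RepB and 110.7 to 386 CPM in WT on those days. Their part in the Wnt1 values was not tested.

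**Figure D4:**
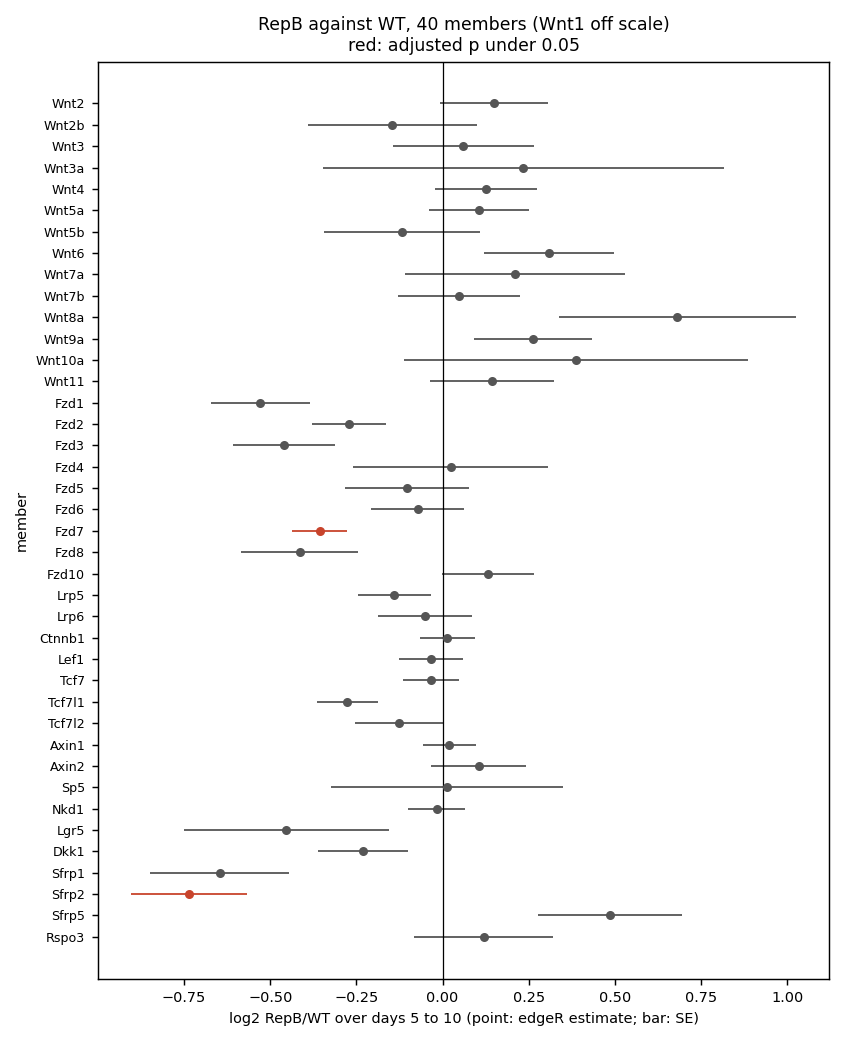
Points give the edgeR log2 RepB/WT over days 5 to 10 of each member and bars its SE, with red for the members that passed. Fzd7 (-0.36) and Sfrp2 (-0.74) are the red points, and Wnt1 is left off because its RepB libraries of those days all had 0 counts.

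On single days larger gaps were seen, each between 1 library and another with no replicate check. Of 15354 genes that reached 1 CPM in any library, 1% were more than 2-fold higher in RepB at day 5 and 1.5% more than 2-fold lower, on log2 values with 0.5 CPM added. Of the 41 members 4 were higher (Wnt3, Wnt8a, Sp5 and Rspo3) and 0 lower. At day 6 there were 0 members higher and 2 lower (Sfrp1 and Sfrp2), with 1.65% of genes in each direction. At day 7 there were 0 higher and 4 lower (Wnt1, Wnt3a, Fzd3 and Sfrp2), with 1.51% and 2.23% of genes. Wnt3a had 0 counts in RepB and 11 in WT there.

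At day 8, 1 member was higher (Fzd4) and 4 were lower (Wnt1, Wnt5b, Sp5 and Sfrp1), with 4.4% and 4.01% of genes. At day 10, 1 was higher (Wnt8a, on 2 counts in RepB and 0 in WT) and 2 were lower (Wnt1 and Wnt10a), with 2.29% and 1.98% of genes. Wnt10a had 0 counts in RepB and 7 in WT there, and its WT level of 0.712 CPM was under the RepB floor of 0.835 CPM. The 4 members past this fold at day 5 were 2 ligands, a direct target and a secreted modulator, all with their highest WT library at day 6 or 7.

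At day 5 Wnt8a was 3.55 times as high in RepB as in WT (95% interval 2.91 to 4.35), an exact binomial interval for counting error only, like those that follow. Sp5 was 3.15 times as high (2.73 to 3.63), Rspo3 2.74 times (1.70 to 4.38) and Wnt3 2.21 times (1.79 to 2.71). At day 6 these ratios were 1.15 for Wnt8a, 0.93 for Sp5, 1.26 for Rspo3 and 1.08 for Wnt3.

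At day 8 the order of the lines was the other way round for Sp5, Wnt5b and Wnt3. Sp5 was at 0.29 times WT (0.21 to 0.41), Wnt5b at 0.38 (0.25 to 0.55) and Wnt3 at 0.57 (0.45 to 0.73). At day 10 Sp5 was again higher in RepB, at 1.83 times WT (1.04 to 3.14). Axin2 did not share this, with 1.66 times WT (1.45 to 1.90) at day 5 and 1.23 times (1.04 to 1.45) at day 8. The estimates over days 5 to 10 were small, at 0.01 for Sp5 (log2, SE 0.34) and 0.06 for Wnt3 (SE 0.20). Wnt8a stood at 0.68 (SE 0.34, adjusted p = 0.392).

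A steady change of the gap with time was tested as the difference of slopes between RepB and WT over days 5 to 10. It gave 0 of 38 members and 0% of 12948 genes by edgeR. At an unadjusted p under 0.05 there were 0 members and 200 genes (1.54%), and no other tool was run. With no gene called at all, the test says little about the members. A straight slope also cannot follow a gap that turns back, as that of Sp5 did at day 10. The RepB and WT difference over days 5 to 10 less that at day 0 gave 0 of 41 members, against 0.0329% of genes, with 0 called by DESeq2 or limma-voom. At an unadjusted p under 0.05 there were 6 members (14.6%), against 8.86% of genes. The smallest adjusted p of a member there was 0.393.

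The summed level of primitive streak genes moved with these day 5 and day 8 gaps. The summed level of 10 streak and early mesoderm genes was 44.5, 480, 1893, 993, 138 and 32.9 CPM in RepB against 39.7, 227, 1804, 1226, 424 and 41.8 CPM in WT. At day 5 the streak factor T, a Wnt target outside the members, was 2.69 times as high in RepB (2.43 to 2.99) and Eomes 2.29 times (2.13 to 2.46). None of the 10 was at 0 in all libraries of days 5 to 10 in either line. None passed in RepB against WT over those days, and their part in the values of Sp5, Wnt3 and Wnt8a was not tested. Markers of naive pluripotency moved with genotype too, with 8 of 10 higher in RepB over days 5 to 10 and sums of 369 to 1373 CPM in RepB against 273 to 946.5 CPM in WT, and their part was not tested either.

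**Figure D5:**
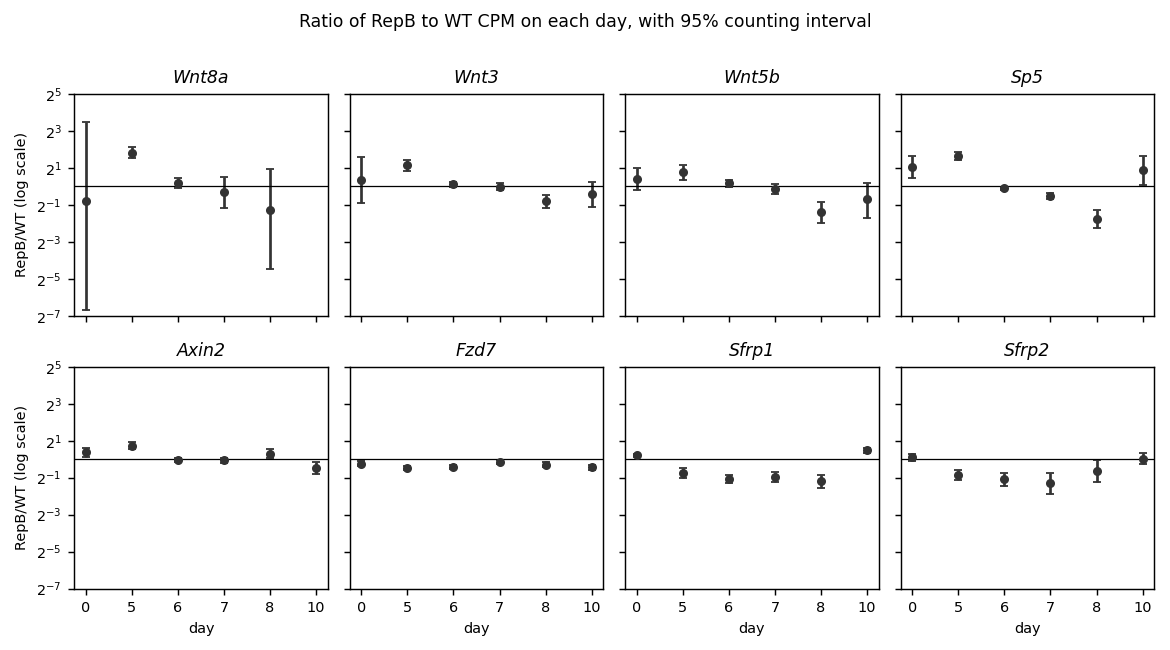
Points give the ratio of RepB to WT CPM on each day (logarithmic axis, base 2) for 8 members, and bars the exact 95% counting interval, cut at the axis limits. Sp5, Wnt3 and Wnt8a lie above 1 at day 5, Sp5, Wnt3 and Wnt5b below 1 at day 8, Fzd7 below 1 throughout, and Sfrp1 above 1 at day 10.

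Reads assigned to the parental alleles gave a further readout. The table names them cas and mus, taken here for the CAST/Ei and the 129/Sv/Jae allele, and 20.2% to 21.8% of allelic counts in a library were cas. Only 8 members had at least 10% cas among their own allelic counts, and the other 33 had at most 7.69%; the cause of that low share was not tested. No member is X-linked. Of the members, 30 averaged 20 or more allelic counts per library. Of those 30 only 7 had at least 10% cas, and in the other 23 so few reads were cas that the test could hardly have called a difference. The cas share differed between RepB and WT over days 5 to 10 in 0 of the 30, against 2.24% of 10332 genes by edgeR, and this says little beyond the 7. At an unadjusted p under 0.05 there was 1 member (Lrp6, which was 0.56% cas), or 3.33%, against 5.83% of genes, and no other tool was run.

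Axin2 had 44.7% cas in RepB (exact Clopper-Pearson interval 40.7 to 48.8, 595 allelic counts pooled over days 5 to 10) and 46.7% in WT (44.1 to 49.4, 1397 counts). Sfrp1 had a pooled 65.8% in RepB (62.1 to 69.4, 661 counts, of which 365 were of day 10) and 65.4% in WT (63.3 to 67.4). On days 5, 6, 7, 8 and 10 its share was 74.2, 72.7, 73.4, 65.9 and 60.5% in RepB against 65.1, 68.6, 67.7, 61.7 and 63.5% in WT. RepB was thus higher on days 5 to 8 and lower on day 10, and Sfrp1 did not pass. Wnt3 had 53.4% in RepB (48.3 to 58.6) and 45.9% in WT (42.6 to 49.2), a gap that did not pass over days (log2 of the allelic ratio 0.38, SE 0.31, adjusted p = 1). Wnt2 was mostly cas in both lines, with 79.3% in RepB (68.9 to 87.4) and 77.4% in WT (71.6 to 82.5).

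The rest of the pathway was followed in 67 further genes, of which 65 could be tested. Over days 5 to 10, 1 of them was higher in RepB and 0 were lower, a share close to the 1.51% of all genes called higher. It was Porcn, the X-linked enzyme that attaches the lipid to Wnt proteins. For that difference less the one at day 0, 0 of the 65 were higher and 1, a Wnt target gene, was lower, against 0.0329% of all genes. Porcn measured 75.5, 80.0, 52.7, 38.9, 27.9 and 20.3 CPM in RepB against 95.8, 49.98, 34.6, 28.8, 23.0 and 13.8 CPM in WT. RepB was below WT at day 0 and above it on all 5 later days, and the log2 difference over those was 0.53 (SE 0.10, adjusted p = 0.0168). Its cas share over days 5 to 10 was 66.1% in RepB (52.2 to 78.2) and 77.7% in WT (68.4 to 85.3), which did not pass (adjusted p = 1).

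Amer1, an X-linked gene whose product joins the beta-catenin destruction complex, did not pass in level (log2 0.04, SE 0.12, adjusted p = 0.913). Its cas share did, at a pooled 79.9% in RepB (73.6 to 85.3) against 91.7% in WT (89.0 to 93.9), with adjusted p = 0.0436. On days 5, 6, 7, 8 and 10 it was 75.8, 61.2, 78.1, 93.1 and 94.1% in RepB against 85.4, 92.4, 92.8, 96.2 and 94.6% in WT. The gap was thus larger on days 5 to 7 than on days 8 and 10. Amer1 was the 1 call among 44 further pathway genes tested for the cas share, against 2.24% of all genes. Whether the call held without a day was not checked. Against day 0, 14 of the 65 other pathway genes rose and 4 fell, with a median log2 change of 0.23, beside 12.4% of all genes called higher, 13.1% lower and a median of 0.08. The 10 further Wnt target genes had 4 that rose and 0 that fell, and the 12 genes of the intracellular pathway had 0 in either direction.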

How the data were processed

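Polyadenylated RNA was sequenced in 12 libraries, 1 per genotype (RepB, WT) and day (0, 5, 6, 7, 8, 10). The authors deposited raw counts per gene for 24391 rows, in total and, in separate columns, for the reads of each allele (cas, mus). The other deposited unit is the summed exon length in bases, which served for levels per kilobase. The submitters' processing notes name mm9, Novoalign, TopHat, SAMtools, bedtools and featureCounts, with no version or role. The kit was directional per the labels' protocols, and the strand setting of the counting is not given in the sources used here, so a gene and an antisense partner cannot be told apart. Reads shared between close relatives could have been split among them. Another 6 per-sample count columns, of a day with no matching RNA sample, were not used, and 27 rows whose names had become dates hold no member.

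Counts were tested in R 4.3.3 with edgeR 4.0.16 (TMM scaling, filterByExpr on genotype-by-stage groups, quasi-likelihood F test, Benjamini-Hochberg over all genes tested, threshold 0.05). The RepB against WT fit used all 12 libraries with day as a factor, which left 4 residual degrees of freedom and a biological coefficient of variation of 12.2%. Days 5 to 10 against day 0 used genotype-by-stage groups with no day term. Slopes used the 10 libraries of days 5 to 10. The allele test took genes that averaged 20 or more allelic counts per library. The edgeR comparisons and the allele test were tested on simulated counts with known changes, far larger than the RepB and WT differences of Fzd7 and Sfrp2. The other tools, the thinning, the screen of daily ratios, the intervals and the motif search were not. Alternatives were RLE scaling, no filter on low counts, leaving out each day, counts thinned at random to the smallest library of 3594551 counts, DESeq2 1.42.0, limma-voom (limma 3.58.1), other models and other allelic minimums. Intervals and the floor of 3 counts cover counting error only; no molecular identifiers are mentioned in the labels.

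The members and lists were chosen with earlier results of these data known. Values in every library were to be given for members past the threshold in RepB against WT, the members of each role with the highest mean CPM per kb, the largest rise and fall against day 0 in each role, and the 6 smallest p among called slopes. Axin2, Rspo3, Wnt1, Wnt2, Wnt4 and Wnt5b were added after their values were seen, as were the other members named for a count, a single-day gap or an allelic share. Sequences are from RefSeq, table build GRCm38.p6.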

Additional observations from a re-analysis of the deposited data

Results flagged for a closer look

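Among the 33 members whose RepB/WT ratios on the 5 days from day 5 to day 10 were screened for a day far from the others, 1 met the threshold of Dixon's test. The log2 RepB/WT of Sfrp1 was 0.48 at day 10 and between -1.18 and -0.74 on days 5 to 8, so that the gap to the nearest day took up 0.733 of the whole range. Chance alone flags about 1 in 20 groups of this size, and the reason for the day 10 value was not tested.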

How the results depend on the processing

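The 2 members lower in RepB (Fzd7 and Sfrp2) were the result most open to the processing. Their number was 1 with RLE scaling, 5 with no filter on low counts, 3 with DESeq2, 1 with limma-voom, 0 after thinning, 0 with no replicate block (no day term) and 0 with 1 genotype effect over all 6 days; leaving out each day gave 0 to 5. The 14 members called against day 0 became 29 in the fit with day as a factor and 9 to 20 without a day, 9 of them without day 6. The counts of 36 for any day difference, 16 slopes, and 0 for the difference less day 0, the slope difference and the allelic share stayed within 1.5 times under each alternative run. Some members changed sign without passing in either fit. For RepB against WT these were Nkd1 (4.35e-05 with RLE, 0.0004682 with DESeq2, 0.035 with no day term, -0.047 to 0.017 without a day), Sp5 (-0.11 thinned, -0.10 with no day term, -0.49 to 0.30 without a day, with -0.07 without day 10), Wnt3 (-0.22 to 0.26 without a day), Fzd5 (0.18 thinned, -0.26 to 0.12 without a day), Lef1 (-0.096 to 0.026 without a day, with 0.014 without day 7), Wnt5a (-0.055 to 0.28 without a day), Ctnnb1 (-0.040 to 0.047 without a day) and Wnt11 (-0.050 with no day term, -0.0053 with 1 genotype effect). Against day 0 it was Sfrp2 (0.0057 thinned, -0.40 to 0.044 without a day, with 0.033 without day 7). The slopes of Wnt9a (-0.0084 to 0.45 without a day) and Fzd8 (-0.089 to 0.31), which passed with all days, turned without day 10. The cause was not tested. RepB libraries of days 5 to 10 are shallower than WT on the same day, so depth and genotype move together, and members near 3 counts are limited by depth.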
